A study of Mus musculus with 24 samples.

Results

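Primary cultures of the mouse fetal midbrain that had spent 48 h in 3% O2 were compared with midbrain cultures that had spent 48 h in 21% O2. Both groups were defined by the labels alone, with 3 arrays each, so the comparison used 6 of the 24 arrays of the series. All 23410 probe sets with a gene symbol, of 28856 on the array, were described and tested. A probe set is a group of short probes that report 1 transcript, and its value here is a log2 signal, on which a difference of 1 is a 2-fold change.

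The cells were taken from the mesencephalon, the embryonic midbrain, of C57Bl/6 mice at embryonic day 14 and were kept in what the labels call expansion medium. The labels name no genetic change and no added compound in any group, so that oxygen was the 1 stated difference between the groups compared. RNA of each array came from a well of a culture plate. The other 6 groups of 3 arrays were midbrain cultures of 13 d and cortex cultures labelled 48 h and 13 d, each in 3% and in 21% O2. The labels do not state whether the arrays of a group came from separate animals or cultures. P-values thus measure only how far all 24 arrays scatter within their groups, and that scatter may be technical. The cultures hold several cell types, and an array measures their pooled RNA.

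Cells sense oxygen through prolyl hydroxylases that mark the HIF alpha proteins for destruction while oxygen is plentiful. In low oxygen HIF accumulates, binds short DNA elements with the core letters ACGTG or GCGTG, and switches on genes for glucose uptake, glycolysis, blood vessel growth and the removal of mitochondria. Neural stem cells of the embryo live in low oxygen, and midbrain precursors have been expanded in reduced oxygen as a source of dopaminergic neurons.

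Log2 values of the 6 arrays ran from 4.65 to 14.48, with medians per array of 7.39 to 7.42. Arrays of a group correlated at 0.994 to 0.997 (Pearson's r over probe sets, which do not vary independently). Genes of midbrain identity were brighter in these 2 groups than in all others. The mean log2 signal of 21 genes of midbrain and tectum identity was 8.77 ± 0.02 (SD, n = 3) in 3% O2 and 8.85 ± 0.05 in 21% O2, and between 7.24 and 7.71 in the other 6 groups. The mean of 12 forebrain genes was 7.51 ± 0.03 and 7.62 ± 0.01, against 9.68 in both cortex groups labelled 13 d. In the cortex groups labelled 48 h it was 7.21 ± 0.24 and 7.57 ± 0.10, so that forebrain genes did not set midbrain 48 h apart from those arrays. Neuronal genes were bright, with a mean over 21 pan-neuronal genes of 11.28 ± 0.01 and 11.32 ± 0.05. The corresponding means for 18 neural stem and radial glia genes were 9.95 ± 0.08 and 9.97 ± 0.18. The pan-neuronal mean was 10.71 ± 0.03 in cortex labelled 13 d at 21% O2, but 8.98 ± 0.14 in cortex labelled 48 h and 8.31 ± 0.05 in midbrain 13 d. In this level cortex labelled 48 h thus lay nearer to midbrain 13 d than to midbrain 48 h, which runs against its label, and cortex times are given as labelled throughout.

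At 3% O2 a small set of genes rose, with roles in glycolysis, lactate export, mitochondrial control and vessel growth. Alongside them rose neuropeptide genes and a pair of sodium channel genes. The sodium channel genes did not rise past the threshold in the other 3 oxygen comparisons, whereas some members of the neuropeptide list did. The falls were smaller and included p53 target genes and genes typical of macrophages. Of the 23410 probe sets, 164 rose (0.701%) and 115 fell (0.491%), together 279 (1.19%), by limma with an adjusted p under 0.05. The 3 and 3 arrays did not overlap in 163 of the 164 and 114 of the 115, against 18.8% of all probe sets tested. The calls were made on these same values, so that count is a description and not separate evidence. Without 3% replicate 1, 102 rose and 47 fell, and without 3% replicate 2, 95 rose and 46 fell. Without 21% replicate 3, 92 rose and 87 fell.

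Rises were larger than falls. A rise of at least 1 was found in 17 probe sets of 15 genes or gene groups, and a fall of at least 1 in 0. Of the 279 calls, 214 were smaller than 0.5 in size. The median log2 difference of all probe sets was -0.02, and 40.5% were positive. Just inside the threshold lay Fam222a (adjusted p = 0.0499) and just outside it Ero1a, an oxidase of the endoplasmic reticulum (0.0501). The split of the calls depended on the scaling. Higher calls made up 58.8% with the deposited values, 68.1% when every array was centred on its median, and 49.5% when centred on the median of probe sets with a symbol.

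The calls rest on a spread shared by all 24 arrays. A fit of the 6 arrays alone called 4 probe sets, Gal, Npr2, Snord104 and Clu, with 2872 at an unadjusted p under 0.05. All 164 rises and all 115 falls were among those 2872. Both fits take the same difference of means from the same arrays, so the direction could not differ and the overlap is not separate evidence. Clu, which encodes the secreted chaperone clusterin, read 8.97, 8.93 and 8.88 in 3% O2 and 8.34, 8.23 and 8.32 in 21% O2, but did not pass in the fit of 24 arrays (log2 difference 0.63 ± 0.32, SE, adjusted p = 0.367).

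The largest rise belonged to Slc16a3, which encodes the lactate exporter MCT4. Its log2 signal was 11.13, 9.24 and 10.03 in replicates 1 to 3 at 3% O2 and 7.46, 7.66 and 7.79 at 21% O2. The groups were far apart, and replicate 1 stood above the other two arrays at 3% O2. The difference was 2.50 ± 0.30 (SE), or 5.64-fold, with a limma adjusted p of 0.000252.

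Glucose uptake showed the same order of arrays. Slc2a1, the main glucose transporter GLUT1, read 12.13, 11.05 and 11.21 against 10.43, 10.27 and 10.17, a rise of 1.18 ± 0.20 (adjusted p = 0.00633). The neuronal transporter gene Slc2a3 read 11.29, 10.51 and 10.50 against 10.10, 9.92 and 9.59. Its groups did not overlap either, yet it missed the threshold (0.90 ± 0.23, adjusted p = 0.0607), which it passed with the replicate number as a block (0.0277). Of 12 glucose and lactate transporter genes 2 rose and 0 fell, 11 were positive, and the list's median was 0.22.

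Glycolytic enzymes moved most as a group. Of 14 measured, 8 rose and 0 fell, the median difference was 0.57, and 7 rose when 3% replicate 1 was left out. Ldha, the lactate dehydrogenase subunit that favours lactate production, read 13.23, 12.77 and 12.86 against 12.01, 11.76 and 11.66. All 3 hypoxic arrays lay above all 3 others, with a rise of 1.15 ± 0.10, 2.21-fold (adjusted p = 7.78e-06).

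Pfkl and Pfkp encode phosphofructokinases, which catalyse the committed step of glycolysis. Pfkl read 10.39, 9.42 and 9.60 against 8.80, 8.50 and 8.57 and rose by 1.18 ± 0.19 (adjusted p = 0.00271). Pfkp read 11.06, 10.64 and 10.60 against 9.42, 10.05 and 9.98 and rose by 0.95 ± 0.21 (adjusted p = 0.0326). Its 21% O2 replicate 1 was lower than the other two. The muscle form Pfkm read 10.01, 9.91 and 9.87 against 9.92, 9.89 and 9.85, so its groups were close together (0.04 ± 0.12).

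Further down the pathway, the triose phosphate isomerase gene Tpi1 rose by 1.10 ± 0.17 (adjusted p = 0.0025), from 10.64, 10.36 and 10.21 to 12.03, 11.03 and 11.47. Pgk1, which makes the first ATP of glycolysis, rose by 0.85 ± 0.14, and its other probe sets both rose by 0.91. Aldoa, an aldolase, rose by 0.67 ± 0.08, the phosphoglycerate mutase gene Pgam1 by 0.50 ± 0.08 and the pyruvate kinase gene Pkm by 0.44 ± 0.08. Pgk1 and Pgam1 have near-identical copies elsewhere in the genome, so their values are uncertain to that extent.

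The other 6 enzymes did not pass. Hk2, the inducible hexokinase, read 8.37, 7.34 and 7.45 against 7.25, 6.95 and 7.02 (0.65 ± 0.20, adjusted p = 0.119, and 0.0386 with the block). Differences of Hk1, Aldoc, Ldhb, Pfkm and Eno2 lay between -0.12 and 0.30. Isoform genes of 1 step thus differed in their call, as with Ldha and Ldhb or Aldoa and Aldoc.

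**Figure D1:**
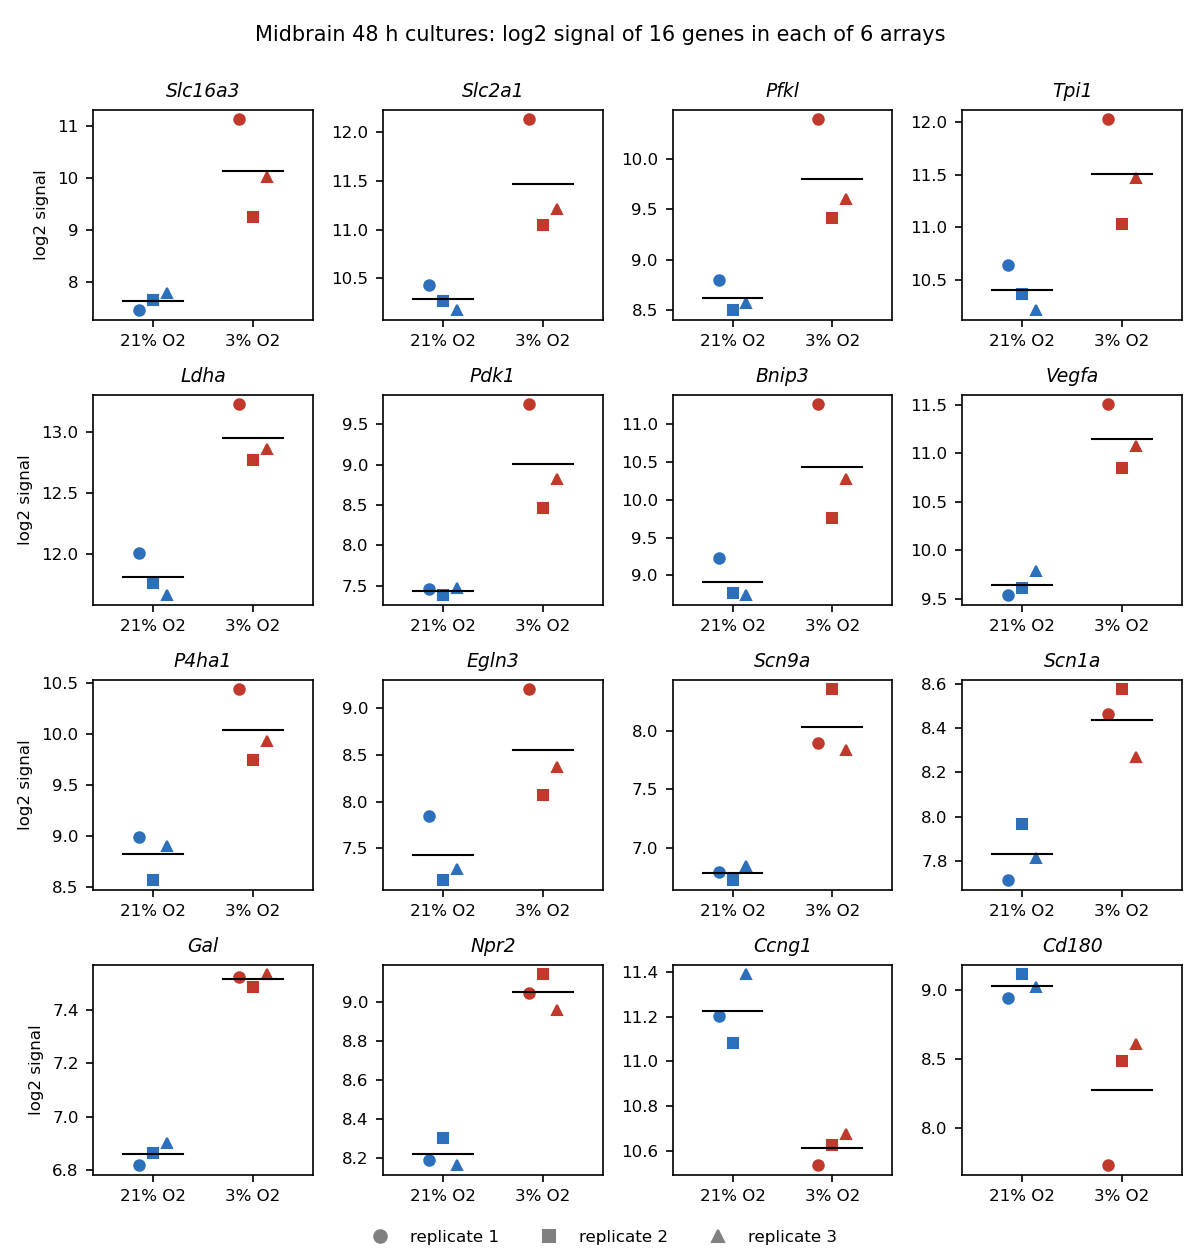
Log2 signal (vertical axes, scaled per gene) of 16 genes in the 3 arrays at 21% O2 (blue) and the 3 at 3% O2 (red), with markers for the replicate number and a black line at each mean. Replicate 1 is the highest array at 3% O2 for the 10 hypoxia genes from Slc16a3 to Egln3, whereas Scn9a, Scn1a, Gal and Npr2 do not share that order and Ccng1 and Cd180 lie lower at 3% O2.

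Replicate 1 at 3% O2 was the highest of its group for most of the large rises. It was highest in 15 of the 17 probe sets that rose by at least 1, and replicate 2 was lowest in 15, against 31.1% of all probe sets with replicate 1 highest. Between arrays of the same number, the median difference of these 17 was 1.44 for number 1, 0.92 for number 2 and 1.17 for number 3. All 17 were positive in all 3 numbers. Among the 147 smaller rises replicate 1 was highest in 58.

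Leaving out that array changed some calls. Without 3% replicate 1, Bnip3 had a difference of 1.10 (limma adjusted p = 0.0683), Ciart 0.82 (0.1095), Ache 0.82 (0.0640) and Kdm7a 0.51 (0.0575). Bnip3 and Ciart also lost their calls without 21% replicate 2 (limma adjusted p = 0.0507 and 0.0622) or 21% replicate 3 (0.0583 and 0.0977). Of the 25 named genes that rose, 19 kept the call when any single one of the 6 arrays was omitted, and of the 16 that fell, 5 did. The other rises lost in this way were Egln3, without 21% replicate 2 or 3 (0.0507 and 0.0510), and Slc39a10.

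**Figure D2:**
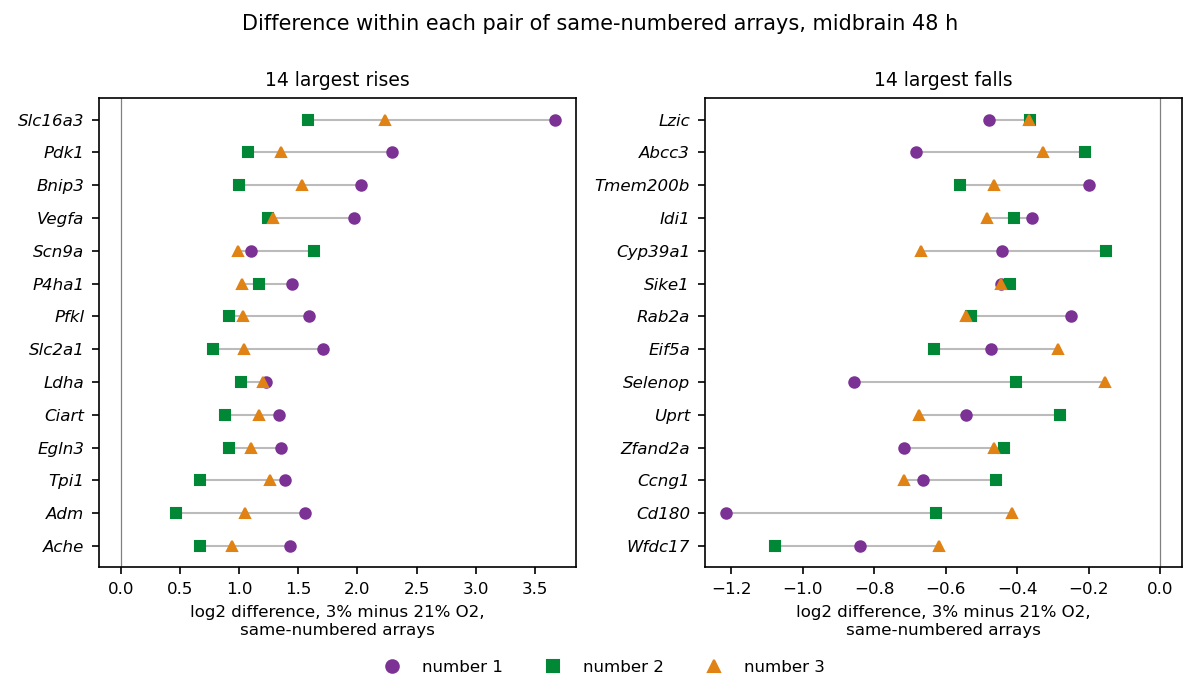
Log2 difference between the 3% and 21% O2 arrays of the same replicate number (horizontal axes) for the 14 largest rises and the 14 largest falls, ordered by size, with 1 marker per number. Number 1 is farthest right for most rises, as with 3.67 for Slc16a3 and 1.43 for Ache, while Scn9a is largest in number 2; the falls have no common order.

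The HIF core letters were present in a larger share of the promoters of genes that rose than of all genes. RefSeq windows from 250 bases before to 50 after the start were searched on both strands for ACGTG (assembly GRCm38.p6), so that the palindrome CACGTG counts as 2 matches. Windows were found for 112 of 141 genes that rose, 88 of 107 that fell and 15614 of 19938 in all. ACGTG was present in 9 of 17 windows of genes that rose by at least 1 (52.9%), in 48 of 144 windows of all genes that rose (33.3%), in 21 of 112 windows of genes that fell (18.8%) and in 4147 of 19177 of all genes tested (21.6%). GCGTG was found in 64.7%, 45.8%, 41.1% and 40.9% of the same windows. The palindrome CACGTG was found in 23.5%, 11.1%, 8.93% and 8.24%, and which factor binds these letters was not tested. The mean GC content was 62.1%, 60.0%, 60.1% and 57.2% in these 4 sets, and its part in the shares was not tested.

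Upstream stretches of 250 bases are given for 5 genes that all rose, as examples with and without the letters. Capitals mark ACGTG or its reverse complement CACGT. Slc16a3 (chr11:120948817-120949066, plus strand) and Ldha (chr7:46845554-46845803, plus strand) are the lactate genes described above. Ciart (chr3:95882229-95882478, minus strand) encodes a repressor of the circadian clock. Scn9a (chr2:66634963-66635212, minus strand) and Gal (chr19:3414545-3414794, minus strand), described further on, rose without the letters in this stretch.
Slc16a3: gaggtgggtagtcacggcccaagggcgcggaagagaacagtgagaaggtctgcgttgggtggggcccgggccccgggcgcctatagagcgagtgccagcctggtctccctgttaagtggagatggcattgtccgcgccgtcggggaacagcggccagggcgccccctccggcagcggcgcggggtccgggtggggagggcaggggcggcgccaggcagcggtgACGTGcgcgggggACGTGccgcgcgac
Ldha: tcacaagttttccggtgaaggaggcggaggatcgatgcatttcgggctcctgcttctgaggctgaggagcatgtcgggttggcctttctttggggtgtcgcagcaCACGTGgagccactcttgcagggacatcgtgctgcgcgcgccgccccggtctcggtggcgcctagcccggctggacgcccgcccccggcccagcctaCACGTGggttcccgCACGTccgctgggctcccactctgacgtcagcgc
Ciart: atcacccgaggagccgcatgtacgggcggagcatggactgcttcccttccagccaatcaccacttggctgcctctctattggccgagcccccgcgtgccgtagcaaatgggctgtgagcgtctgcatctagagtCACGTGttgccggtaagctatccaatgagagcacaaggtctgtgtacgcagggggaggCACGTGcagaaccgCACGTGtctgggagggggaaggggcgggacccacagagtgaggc
Scn9a: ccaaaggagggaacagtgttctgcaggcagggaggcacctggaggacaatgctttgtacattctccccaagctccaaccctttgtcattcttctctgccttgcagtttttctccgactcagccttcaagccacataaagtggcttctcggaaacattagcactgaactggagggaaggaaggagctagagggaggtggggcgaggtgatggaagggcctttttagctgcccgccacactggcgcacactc
Gal: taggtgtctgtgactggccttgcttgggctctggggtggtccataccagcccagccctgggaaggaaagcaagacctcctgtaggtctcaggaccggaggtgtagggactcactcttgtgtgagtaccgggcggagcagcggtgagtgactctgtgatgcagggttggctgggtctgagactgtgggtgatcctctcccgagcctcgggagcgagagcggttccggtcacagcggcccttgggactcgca
Slc16a3 thus held 2 matches, Ldha 5, Ciart 6, and Scn9a and Gal 0. All matches of Ciart and most of those of Ldha came from CACGTG palindromes, each counted as 2. The windows of Pfkl, Tpi1, Pdk1 and Adm, which also rose by at least 1, held 0 matches of ACGTG as well. So did the other window of Ldha and all 3 windows of the histone demethylase gene Kdm3a. Among called neuropeptide genes, the 2 windows of Adcyap1 held 1 and 2 matches, and that of Npr2 held 0. These counts leave out the other core, GCGTG. It or its reverse complement CACGC was present in a window of each of Pfkl, Pdk1 and Adm.

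Pdk1 encodes the kinase that switches off pyruvate dehydrogenase and so keeps pyruvate out of mitochondria. It read 9.75, 8.46 and 8.82 at 3% O2 and 7.46, 7.38 and 7.47 at 21% O2, a rise of 1.57 ± 0.23, 2.98-fold (adjusted p = 0.00155). The 21% arrays lay close together, and the 3% arrays were spread widely above them. Of the 12 genes of pyruvate dehydrogenase and its regulators, Pdk1 was the single one called, and the list's median was 0.06.

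Of 10 genes of mitophagy and hypoxic cell death 2 rose and 0 fell, 4 were positive and the median was -0.05. Bnip3, a receptor that tags mitochondria for autophagy, read 11.27, 9.76 and 10.27 against 9.24, 8.76 and 8.74. It rose by 1.52 ± 0.30 (adjusted p = 0.0148), and its other probe set rose by 1.31. Fam162a, a HIF target linked to mitochondrial cell death, rose by 0.90 ± 0.15 (adjusted p = 0.0047), from 8.35, 7.97 and 7.85 to 9.30, 8.64 and 8.92. The related receptor gene Bnip3l read 12.66, 12.66 and 12.61 against 12.60, 12.61 and 12.66, with overlapping groups.

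Genes of the mitochondrial machinery itself stayed below the threshold. Among 31 genes of the respiratory chain and ATP synthase and 14 of the tricarboxylic acid cycle, 0 rose and 0 fell, with medians of -0.02 and -0.04. At an unadjusted p under 0.05, which 6.44% of all probe sets passed as higher and 8.44% as lower, 0 and 1 were higher and 2 and 2 lower. Ndufa4l2, a HIF target that replaces a subunit of complex IV, read 7.05, 6.82 and 6.84 against 6.72, 6.89 and 7.02, with a difference of 0.03 ± 0.14.

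Vessel growth was represented by 2 secreted factors. Vegfa, the main angiogenic factor, read 11.51, 10.85 and 11.08 against 9.54, 9.61 and 9.79 and rose by 1.50 ± 0.23, 2.83-fold (adjusted p = 0.00195). Adm, the vasodilator peptide adrenomedullin, read 8.28, 7.40 and 7.92 against 6.73, 6.93 and 6.87 and rose by 1.02 ± 0.16 (adjusted p = 0.00271). In both genes the groups were separate. The other 11 angiogenic and vasoactive genes, among them Epo, Edn1, Angptl4 and Vegfc, had differences between -0.13 and 0.29, and 0 passed.

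Of the oxygen sensors, Egln3 rose. It encodes PHD3, a HIF prolyl hydroxylase that is itself a HIF target, and it read 9.20, 8.07 and 8.38 against 7.85, 7.16 and 7.28 (1.12 ± 0.21, adjusted p = 0.011). Egln1, which encodes PHD2, had a difference of 0.27 ± 0.13 with an adjusted p of 0.344. The HIF subunit genes Hif1a (-0.01 ± 0.06) and Epas1 (-0.33 ± 0.24) did not pass, although HIF is regulated mainly as a protein and mRNA does not report its activity.

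P4ha1, a subunit of the enzyme that hydroxylates collagen, read 10.44, 9.74 and 9.93 against 8.99, 8.57 and 8.90. It rose by 1.21 ± 0.16, 2.32-fold (adjusted p = 0.000496), and was the single one called of 11 collagen hydroxylase and lysyl oxidase genes, of which 3 were called without 21% replicate 1 and 3 with the replicate number as a block. Its partner P4ha2 read 7.54, 6.79 and 7.03 against 6.73, 6.67 and 6.79 (0.39 ± 0.24). Among 18 oxygen-dependent demethylases, the histone demethylase genes Kdm3a (0.71 ± 0.10, adjusted p = 0.000981) and Kdm7a (0.64 ± 0.12, adjusted p = 0.00925) rose, although the other probe set of Kdm7a, at 0.44, did not pass. Kdm3a was even at 21% O2, at 9.55, 9.52 and 9.53, and read 10.60, 10.07 and 10.07 at 3% O2.

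Of 30 further HIF target genes, 25 were positive and 1 was called, Ak4, a mitochondrial adenylate kinase (0.95 ± 0.15, adjusted p = 0.00296), although its other probe set was at -0.01 (adjusted p = 0.985). Stc2, Ero1a, Ankrd37, Higd1a, Mif and Stc1 had differences from 0.41 to 0.74 and adjusted p between 0.0501 and 0.302. Car9, a membrane carbonic anhydrase often used as a hypoxia marker, read 6.48, 6.41 and 6.45 against 6.35, 6.34 and 6.42 (0.08 ± 0.26, adjusted p = 0.930). The list's median was 0.15, and 3 members were called with the replicate number as a block.

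A pair of large rises lay outside the metabolic genes. Ciart read 9.50, 8.53 and 8.61 against 8.17, 7.65 and 7.44 and rose by 1.13 ± 0.24 (adjusted p = 0.0232), with its other probe set at 1.09, and the other 14 circadian clock genes did not pass. Ache, which encodes acetylcholinesterase, the enzyme that breaks down acetylcholine, rose by 1.01 ± 0.19 (adjusted p = 0.0106), from 8.62, 8.68 and 8.63 to 10.05, 9.35 and 9.57.

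Voltage-gated sodium channels carry the rising phase of the nerve impulse. Of 10 measured channel genes 2 rose and 0 fell. Scn9a, the gene of NaV1.7, read 7.90, 8.35 and 7.83 at 3% O2 and 6.80, 6.72 and 6.84 at 21% O2. All 3 hypoxic arrays lay well above all 3 others. The 21% O2 values lay below the array medians of 7.39 to 7.42. The rise was 1.24 ± 0.10, 2.36-fold, with the smallest adjusted p of all named genes (3.02e-06), and the gene's other probe set rose by 0.86.

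Scn1a, the gene of NaV1.1, read 8.47, 8.58 and 8.27 against 7.71, 7.97 and 7.81 and rose by 0.61 ± 0.10 (adjusted p = 0.00271). The other 8 had differences from -0.22 to 0.27. Scn2a read 11.78, 11.97 and 11.69 against 11.47, 11.66 and 11.59 (adjusted p = 0.577). In 0 of the 10 genes was replicate 1 the highest array at 3% O2. Scn9a and Scn1a were left out of an alternative limited to brighter probe sets.

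Neuropeptide genes were the other list with several rises. Of its 18 genes, which include natriuretic peptide receptors, 6 rose and 0 fell, 16 were positive and the median was 0.27, against 0.701% of all probe sets and a median of -0.02. Without 3% replicate 2, 4 were called. Replicate 1 was the highest array at 3% O2 for 5 of the 18, against 11 of 14 glycolytic enzymes.

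Gal, the peptide galanin, read 7.52, 7.49 and 7.54 against 6.82, 6.86 and 6.90. Both groups were tight and apart, and the rise was 0.65 ± 0.06, 1.57-fold (adjusted p = 7.78e-06). Npr2, the receptor of C-type natriuretic peptide, read 9.05, 9.14 and 8.96 against 8.19, 8.30 and 8.17 and rose by 0.83 ± 0.15 (adjusted p = 0.00816). Both were also called in the fit of the 6 arrays alone.

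Adcyap1, the gene of PACAP, read 10.44, 10.27 and 10.44 against 9.83, 9.82 and 9.31 and rose by 0.73 ± 0.12 (adjusted p = 0.00565). Npy, neuropeptide Y, rose by 0.48 ± 0.11 (adjusted p = 0.0345), from 9.93, 9.83 and 9.80 to 10.20, 10.38 and 10.41. Smaller rises were measured for Crh, corticotropin-releasing hormone (0.23 ± 0.04), and Vip (0.23 ± 0.05). Crh read 6.15, 6.12 and 6.23 against 5.93, 5.96 and 5.91 and Vip 6.01, 6.15 and 6.22 against 5.87, 5.94 and 5.89, both near the low end of the scale, where signal and background cannot be told apart in normalized values. The opioid peptide gene Penk read 8.73, 8.54 and 8.84 against 8.32, 8.13 and 7.87 without passing (adjusted p = 0.0927).

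Outside the list, and named after their values were seen, other genes of peptide signalling and secretory granules were among the 164. Vgf, a granule protein of neurons, rose by 0.63 (11.12, 10.92 and 10.88 against 10.43, 10.49 and 10.11). Crhbp, which binds corticotropin-releasing hormone, rose by 0.52, the prokineticin receptor gene Prokr2 by 0.48, the granule protein gene Resp18 by 0.46 and Pnoc, prepronociceptin, by 0.35. Nrsn1, a neuronal vesicle protein, rose by 0.68 and the GABA receptor subunit gene Gabre by 0.67.

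None of the neuronal markers was called. Of 21 pan-neuronal genes 0 rose and 0 fell, 6 were positive and the median was -0.10, with 1 higher and 2 lower at an unadjusted p under 0.05. The arrays did not overlap in 8 that were lower at 3% O2 and 2 that were higher, against 10.9% and 7.84% of all probe sets. The list mean was 11.27, 11.29 and 11.29 at 3% O2 and 11.35, 11.35 and 11.27 at 21% O2. None of 16 genes of midbrain dopaminergic neurons passed, with 3 higher and 0 lower at an unadjusted p under 0.05. Th, tyrosine hydroxylase of dopamine synthesis, read 7.38, 7.91 and 7.55 against 7.70, 7.63 and 7.31 (0.07 ± 0.11), and Nr4a2, a transcription factor of these neurons, 9.83, 10.28 and 10.17 against 9.88, 10.28 and 9.80 (0.11 ± 0.13).

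**Figure D3:**
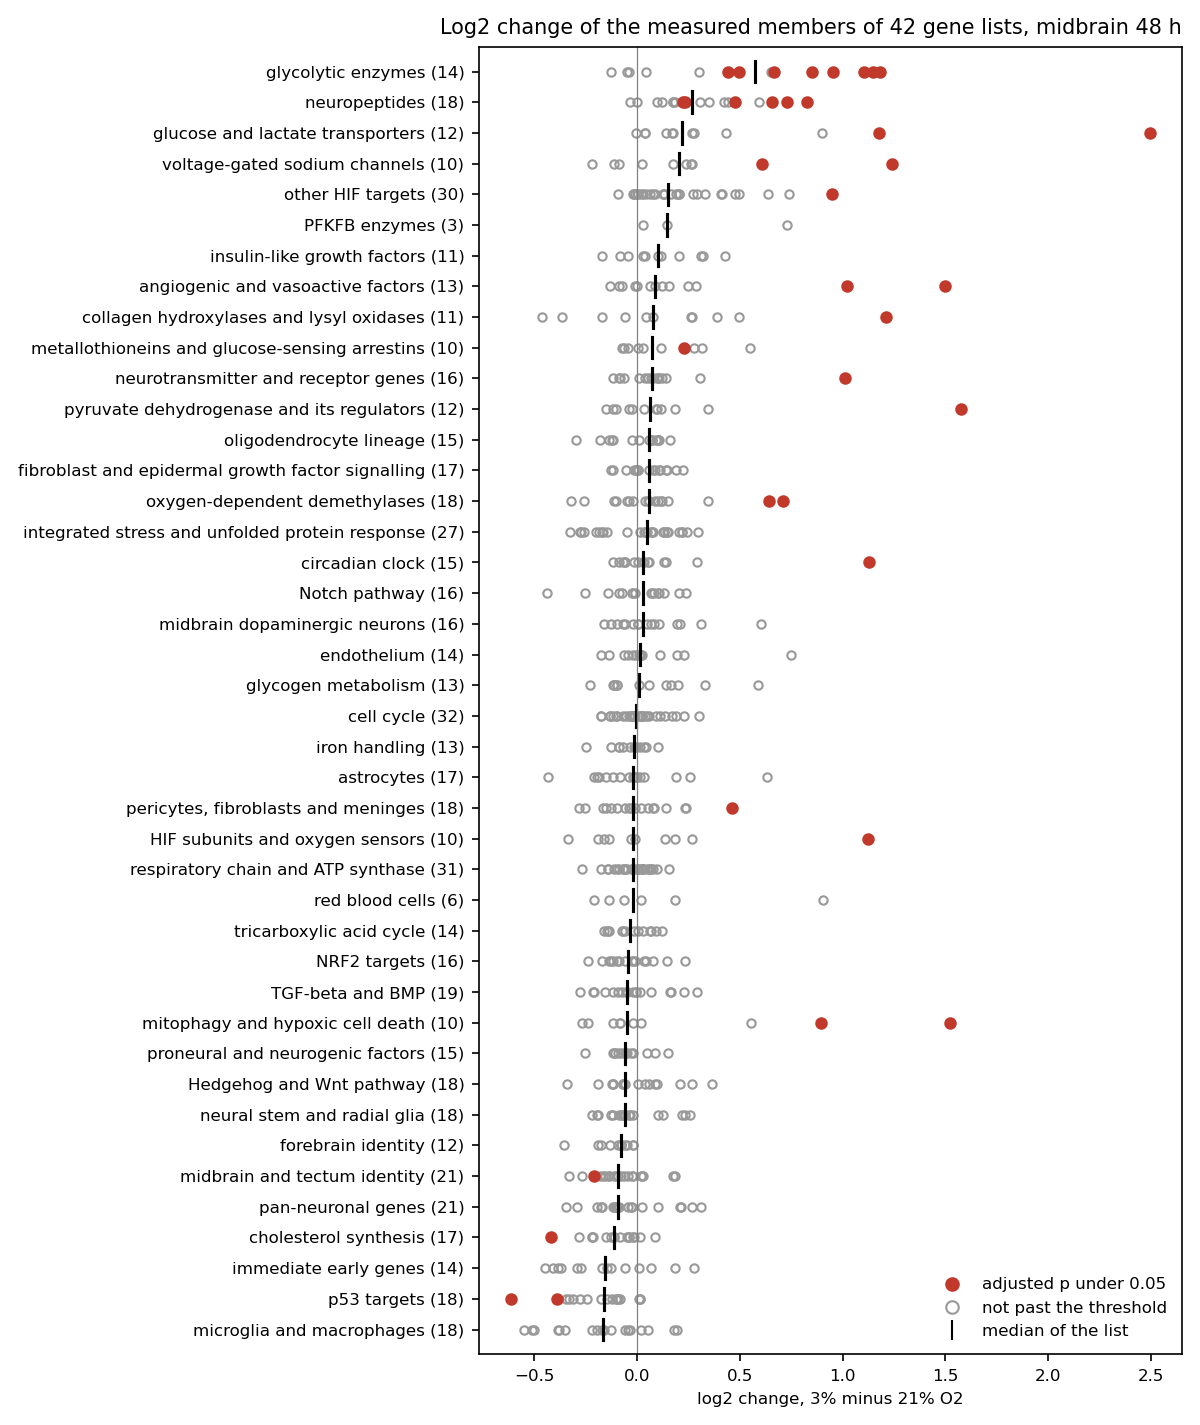
Log2 difference, 3% minus 21% O2 (horizontal axis), of every measured member of the 42 gene lists, 1 point per gene and the number of genes in brackets, ordered by the median (black tick). Filled red points passed the adjusted p threshold; the 8 called glycolytic enzymes and 6 called neuropeptide genes stand at the top of the plot, and p53 targets and the microglia and macrophage list at the bottom.

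Of the miRNA genes called with a single symbol, 4 of 6 lay in 1 span of chromosome 12, and Mir186 and Mir421 lay on other chromosomes. The array probes of a miRNA gene report the precursor or its host transcript, not the mature miRNA. The 6 called miRNA genes with a single symbol were Mir495 (0.58 ± 0.09, adjusted p = 0.00216), Mir369 (0.50 ± 0.08), Mir487b (0.45 ± 0.11), Mir186 (0.45), Mir543 (0.38 ± 0.08) and Mir421 (0.30). Mir543, Mir495, Mir487b and Mir369 lie within chr12:109717258-109743496 on the plus strand (RefSeq, GRCm38.p6), and their mature sequences are given with the seed, bases 2 to 8, in capitals.
mmu-miR-495-3p: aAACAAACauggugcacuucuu
mmu-miR-543-3p: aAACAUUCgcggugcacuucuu
mmu-miR-369-3p: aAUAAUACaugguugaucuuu
mmu-miR-487b-5p: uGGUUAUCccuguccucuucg
No 2 of the 10 mature sequences listed for the called genes shared a seed.

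Mir495 read 6.96, 6.68 and 6.84 at 3% O2 and 6.02, 6.19 and 6.53 at 21% O2, without overlap. Mir369 read 7.48, 7.40 and 7.18 against 6.80, 7.01 and 6.74, also without overlap. The span was set by the first and last of the called genes in it, so its share of calls was partly fixed by that choice. Of the 21 miRNA genes measured in that span, 4 rose, 20 were positive and the median was 0.20. Over all 299 miRNA probe sets, 6 rose (2.01%), 170 were positive and the median was 0.02. The members of the span share a host region and are not independent of each other.

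Falls were smaller than rises, and the largest belonged to genes typical of macrophages. Wfdc17, a secreted protein of macrophages, read 5.95, 6.31 and 6.56 at 3% O2 and 6.79, 7.39 and 7.18 at 21% O2 and fell by 0.85 on the log2 scale (SE 0.13, adjusted p = 0.00175). Cd180, a Toll-like receptor relative of immune cells, read 7.73, 8.48 and 8.61 against 8.94, 9.11 and 9.02 and fell by 0.75 (SE 0.14, adjusted p = 0.0119). Replicate 1 was the low array in both, and without it the difference of Cd180 was -0.48. Wfdc17 and Cd180 were left out of an alternative limited to brighter probe sets.

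The wider macrophage list moved with replicate 1. The mean of 18 microglia and macrophage genes was 7.58, 7.84 and 8.21 at 3% O2 and 8.12, 8.00 and 8.05 at 21% O2. Replicate 1 was the lowest hypoxic array for 15 of the 18 genes, and replicate 3 lay above all 21% O2 arrays in the mean. With all arrays, 0 of 18 passed, 4 were positive and the median was -0.17. At an unadjusted p under 0.05, 1 was higher and 6 were lower. Without 3% replicate 3, 5 fell, and 1 fell with the replicate number as a block. Tyrobp, an adaptor of myeloid receptors, had a difference of -0.55 (adjusted p = 0.109), Cd68, a lysosomal protein of macrophages, -0.50 (0.0943) and C1qa, a complement subunit, -0.39 (0.0823). In pooled RNA, fewer cells of a type and less RNA per cell cannot be told apart.

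Named after their values were seen, 5 further genes with known myeloid expression were among the 115 falls. Bin2 fell by 0.39, Myo1f by 0.35, the scavenger receptor gene Stab1 by 0.34, the Fc receptor gene Fcgr4 by 0.30 and the Toll-like receptor gene Tlr2 by 0.29. Stab1 read 7.93, 8.16 and 8.29 against 8.54, 8.48 and 8.38. The groups of Stab1 were separate, with replicate 1 lowest, whereas those of Bin2 overlapped (5.74, 5.70 and 6.05 against 6.04, 6.20 and 6.41). The part of the macrophage level in these falls was not tested.

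Another non-neural list split the arrays by number and not by oxygen. The mean of 18 genes of pericytes, fibroblasts and meninges was 7.09, 7.03 and 7.83 at 3% O2 and 7.11, 7.01 and 7.82 at 21% O2. Both replicates 3 were thus higher by about the same amount. In that list Abcc9, a potassium channel subunit of pericytes, rose by 0.46 ± 0.05 (6.90, 6.83 and 7.01 against 6.37, 6.48 and 6.52, adjusted p = 5.29e-05), and the other 17 did not pass.

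**Figure D4:**
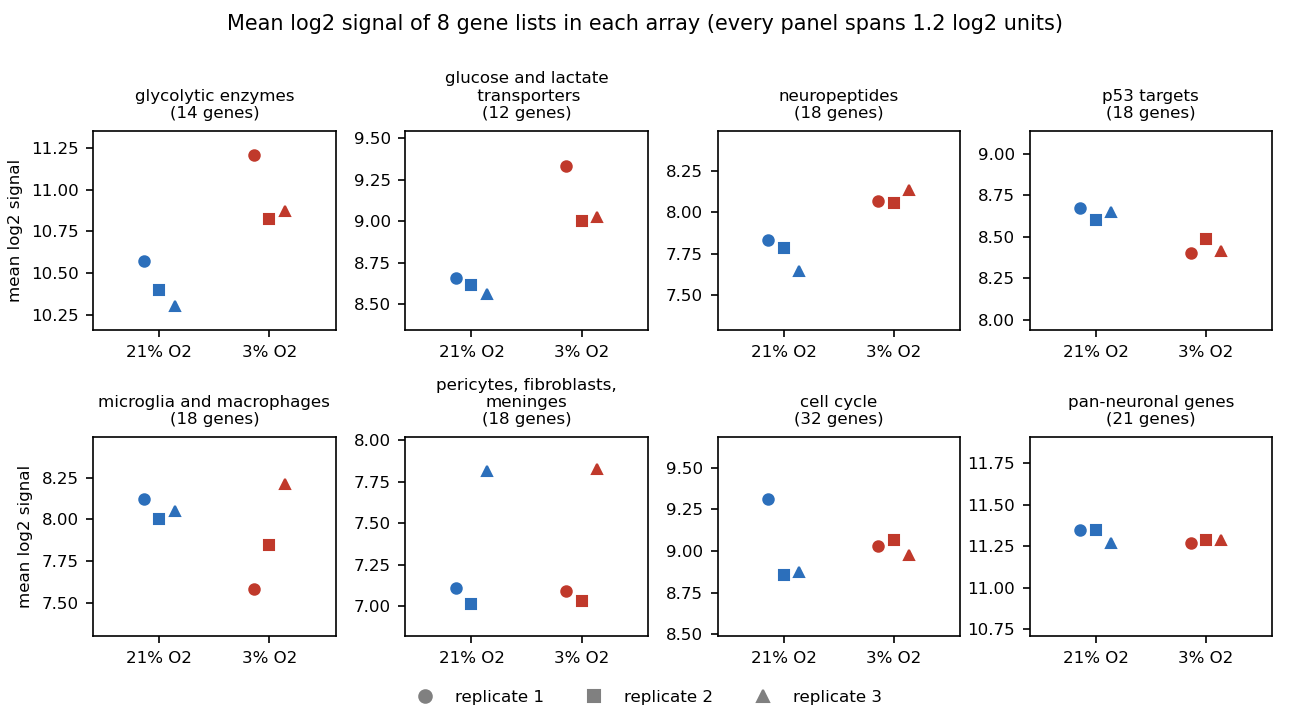
Mean log2 signal of 8 gene lists (vertical axes, each spanning 1.2 log2 units) in the 3 arrays at 21% O2 (blue) and 3% O2 (red), with markers for the replicate number. Glycolytic enzymes, transporters and neuropeptides lie higher in every 3% O2 array and p53 targets lower, whereas the macrophage mean varies from 7.58 to 8.21 among the 3% O2 arrays and the pericyte list is high in both replicates 3.

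Targets of p53, the transcription factor of the DNA damage response, fell in 2 of 18 genes and rose in 0. Of all probe sets 0.491% fell and 0.701% rose. Ccng1, the cyclin G1 gene, read 10.54, 10.63 and 10.67 at 3% O2 and 11.20, 11.08 and 11.39 at 21% O2 and fell by 0.61 (SE 0.07, adjusted p = 0.000111). Phlda3, an inhibitor of Akt signalling, read 8.03, 8.08 and 7.97 against 8.55, 8.37 and 8.33 and fell by 0.39 (SE 0.09, adjusted p = 0.0341). Both had separate groups.

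The rest of the p53 list did not pass. The arrays did not overlap in 9 of the 18, all lower at 3% O2, against 10.9% of all probe sets lower without overlap. Only Plk2, Bbc3 and Btg2 were positive, each at 0.01, and the median was -0.16. Mdm2, the feedback inhibitor of p53, read 9.77, 10.08 and 9.87 against 10.05, 10.01 and 9.96, with overlapping groups. The call of Phlda3 was lost when any 1 of 5 arrays was omitted, with adjusted p between 0.0519 and 0.0995, whereas that of Ccng1 was kept without each array.

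Of 17 genes of cholesterol synthesis 1 fell and 0 rose, 2 were positive and the median was -0.11. Idi1, the isomerase that makes the building block of sterols, read 10.31, 10.06 and 10.11 against 10.67, 10.46 and 10.59 and fell by 0.42 (SE 0.10, adjusted p = 0.0377), with its other probe set also at -0.42. The groups were separate, yet the call was lost on leaving out any 1 of 4 arrays (adjusted p from 0.0958 to 0.153). Hmgcs1, Mvk and Cyp51 had differences of -0.22, -0.22 and -0.28.

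The other large falls had no common list. Zfand2a, a proteasome adaptor induced by protein stress, fell by 0.54, Uprt by 0.50, the selenium carrier gene Selenop by 0.47, the translation factor gene Eif5a by 0.46, the Golgi transport gene Rab2a by 0.44, Sike1 by 0.44, the oxysterol hydroxylase gene Cyp39a1 by 0.42, Tmem200b by 0.41, the exporter gene Abcc3 by 0.41 and Lzic by 0.40. Rab2a, for example, read 12.29, 12.06 and 12.13 against 12.54, 12.59 and 12.68. The other probe sets of Rab2a and Eif5a, at -0.17 and -0.16, did not pass (adjusted p = 0.0755 and 0.163). Rab2a, Abcc3, Ccng1, Wfdc17 and Cd180 kept the call without each array, and the other 11 named falls lost it in at least 1 omission, Selenop with an adjusted p of up to 0.206.

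Few genes of cell identity and none of cell division were called. Of 21 midbrain and tectum identity genes 1 fell, Tfap2b, a transcription factor of midbrain neurons (-0.21 ± 0.05, adjusted p = 0.0459), and its call was lost without any 1 of the 6 arrays. Among 32 cell cycle, 18 neural stem and radial glia, 16 Notch, 15 proneural, 17 astrocyte and 15 oligodendrocyte lineage genes 0 passed in either direction. At an unadjusted p under 0.05 these 6 lists held 2, 1, 1, 0, 0 and 0 higher and 0, 1, 0, 1, 0 and 0 lower genes. The mean of the cell cycle list was 9.03, 9.07 and 8.98 against 9.32, 8.86 and 8.88. Its array at 21% O2 replicate 1 stood apart, and leaving it out gave 1 called gene.

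Lists of stress, immediate early, iron and glycogen genes gave 0 calls. These were 27 genes of the integrated stress and unfolded protein response, 16 NRF2 targets, 14 immediate early genes, 13 of iron handling and 13 of glycogen metabolism. Their unadjusted counts were 4, 1, 0, 0 and 3 higher and 5, 2, 6, 1 and 1 lower, and their medians were 0.05, -0.04, -0.16, -0.01 and 0.01. Over all probe sets, 6.44% were higher and 8.44% lower at an unadjusted p under 0.05 by limma. The 6 lower immediate early genes included Npas4 (9.16, 9.54 and 9.26 against 9.70, 10.02 and 9.47, adjusted p = 0.0841, and 0.0122 with the block), and 3 fell when 21% replicate 3 was left out and 2 with the replicate number as a block. The zinc transporter gene Slc39a10, in the metallothionein list, rose by 0.23 ± 0.05 (adjusted p = 0.0414) and lost its call in 5 of 6 omissions, with adjusted p of up to 0.160.

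The lists that remain gave 0 calls as well. They were 3 PFKFB enzymes, 18 genes of Hedgehog and Wnt signalling, 11 of insulin-like growth factors, 19 of TGF-beta and BMP, 17 of fibroblast and epidermal growth factor signalling, 14 of endothelium, 6 of red blood cells and 12 of forebrain identity. At an unadjusted p under 0.05, 1 gene was higher in each of these lists but forebrain identity, with 0, and 1 was lower in endothelium, red blood cells and forebrain identity, with 0 in the others. Outside the red blood cell list, a probe set that carries several symbols of adult beta-globin genes was among the 17 rises of at least 1 (8.22, 8.94 and 7.76 against 7.48, 7.27 and 6.71, a rise of 1.15 ± 0.21, limma adjusted p = 0.00937), and its response also differed from the mean of the other 3 (1.36, adjusted p = 0.00338). A further probe set with these symbols did not pass (1.06 ± 0.27, adjusted p = 0.064). With single arrays left out, the counts of called members of all 42 lists moved by at most 1 apart from neuropeptides, collagen hydroxylases, immediate early genes and macrophages, whose counts are given above. With the replicate number as a block, Pfkfb3 (0.73), Sfrp2 (0.37), Igfbp2 (0.31), Sox1 (-0.22) and Jun (-0.27) also passed, as did Plod2 of the collagen list (0.50), with limma adjusted p between 0.0096 and 0.0397.

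The oxygen response of midbrain at 48 h was set against the responses of the other 3 pairs of groups, each measured against its own 21% O2 arrays. All 6 arrays of midbrain 13 d were of array run 1 and the other 18 of run 2, so that in midbrain the run and the culture time cannot be told apart. The rises of Slc16a3, Pdk1, Bnip3, Vegfa and P4ha1 did not pass a test of difference from the mean of those responses, and those of both sodium channel genes and the 6 called neuropeptide genes did. Midbrain cultures of 13 d had 5584 calls (23.9%), cortex labelled 48 h 2886 (12.3%) and cortex labelled 13 d 142 (0.607%). A limma contrast between the midbrain 48 h response and the mean of the other 3 found 1329 probe sets (5.68%), 726 with a higher (3.1%) and 603 with a lower response (2.58%). Of the 279 calls, 85 of the 164 rises and 72 of the 115 falls were among them.

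The 3 comparisons overlapped with it to different degrees. Of the 164 rises, 42 (25.6%) were also called as rises in cortex labelled 13 d, where 0.543% of all probe sets rose. In midbrain 13 d, 42 (25.6%) rose too, against 11.2% of all probe sets, and 16 fell. In cortex labelled 48 h, 32 (19.5%) rose, against 6.25% of all probe sets, and 8 fell. Seen from the other side, the shared rises were 33.1% of the 127 rises of cortex labelled 13 d, 1.61% of the 2614 of midbrain 13 d and 2.19% of the 1462 of cortex labelled 48 h, where 0.701% of all probe sets rose here. Of the 115 falls, 1 (0.87%) was shared with cortex labelled 13 d, where 0.0641% of all probe sets fell. Shared falls numbered 19 (16.5%) with midbrain 13 d, where 12.7% fell, and 13 (11.3%) with cortex labelled 48 h, where 6.08% fell. These were 6.67%, 0.64% and 0.913% of the falls of the 3 comparisons, against 0.491% of all probe sets that fell here.

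The difference from the mean of the others was 0.23 for Slc16a3, 0.19 for Pdk1, 0.07 for Bnip3, 0.29 for Vegfa and 0.17 for P4ha1, with adjusted p from 0.584 to 0.941. That mean joined larger and smaller responses. In cortex labelled 13 d they were 4.32, 2.74, 3.08, 1.78 and 1.56, in midbrain 13 d 1.38, 0.76, 0.75, 1.30 and 0.87, and under the cortex label of 48 h 1.09, 0.66, 0.52, 0.55 and 0.70. The mean at 21% O2 differed between groups, for Slc16a3 from 7.64 here and 7.61 in cortex labelled 13 d to 11.04 in midbrain 13 d and 10.99 for the cortex label of 48 h, and its part in the responses was not tested. Hypoxia genes that did differ included Ldha, whose response was larger by 0.54 (adjusted p = 0.0126), and Adm, whose response was smaller (difference -0.69, adjusted p = 0.0327). In midbrain 13 d Ldha changed by 0.53 and Adm by 2.11, and in cortex labelled 48 h by 0.31 and 1.15. Ldha changed by 0.98 and Adm by 1.89 in cortex labelled 13 d, and neither differed past the threshold from that comparison alone (adjusted p = 0.861 for Ldha and 0.295 for Adm). Of the 30 other HIF targets, 1 had a higher and 8 a lower response, among them Ero1a (-0.71), and Plod2 (-0.54) and Bnip3l (-0.29) of other lists were lower too.

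The called sodium channel and peptide genes differed. Of all 18 genes of the neuropeptide list, 3 rose past the threshold in midbrain 13 d, 1 in cortex labelled 48 h and 2 in cortex labelled 13 d. In cortex labelled 48 h, 2 fell. Scn9a had a response larger by 1.16 (adjusted p = 1.89e-05), with changes elsewhere of 0.01 in midbrain 13 d, 0.03 in cortex labelled 48 h and 0.21 in cortex labelled 13 d. The difference of Scn1a was 0.57 (adjusted p = 0.00485), of Gal 0.54 (0.000181), of Npr2 0.76 (0.0143), of Crh 0.28 (0.000698), of Npy 0.43 (0.0493), of Adcyap1 0.49 (0.0499) and of Vip 0.25 (0.011). Against cortex labelled 13 d alone, 5 probe sets differed, Gal, Scn9a and the taste receptor gene Tas2r108 with a larger and Ndufa4l2 and Kbtbd11 with a smaller response. The other sodium channel and peptide genes did not differ from it past the threshold. Scn1a had a difference of 0.45 (adjusted p = 0.380) and Npr2 of 0.35 (adjusted p = 0.758). Npr2 changed by 0.48 in cortex labelled 13 d. The mean of Scn9a at 21% O2 was 6.79 here, against 5.84, 5.82 and 6.10 in midbrain 13 d, cortex labelled 48 h and cortex labelled 13 d, and the part of this level was not tested.

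Falls differed as well. Ccng1 fell here and in cortex labelled 13 d (-0.42, adjusted p = 0.0028) but rose in midbrain 13 d (0.47, adjusted p = 4.3e-05), giving a difference of -0.66 (adjusted p = 0.000164). Phlda3 rose by 1.20 in midbrain 13 d (difference -0.76, adjusted p = 0.000287) and changed by 0.14 in cortex labelled 48 h and -0.23 in cortex labelled 13 d, from which alone its response did not differ past the threshold (-0.16, adjusted p = 0.834). Idi1 rose by 0.46 in midbrain 13 d (difference -0.73, adjusted p = 0.000795). Cd180 (-0.88) and Wfdc17 (-0.75) also differed. The macrophage list was brighter here than elsewhere, with means of 7.88 ± 0.32 at 3% and 8.06 ± 0.06 at 21% O2 against 6.40 to 6.82 in the other 6 groups, and its part in these differences was not tested.

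Some genes moved elsewhere and were not called at 48 h in midbrain. Ndufa4l2 had a smaller response (difference -1.51, adjusted p = 4.30e-05), with rises of 1.75, 1.46 and 1.39 in the other 3 comparisons. The collagen gene Col12a1 (-1.51), the phosphatase gene Phospho1 (-1.46), the early response gene Ier3 (-1.40), the endothelial receptor gene Cd93 (-1.37) and Lrrc32 (-1.36) rose past the threshold in midbrain 13 d and cortex labelled 48 h. In the other direction Naaa (1.21), Mc5r (1.13), Slc24a3 (1.12), Sncaip (1.10) and Abca1 (1.10) fell past the threshold in midbrain 13 d and were not called here.

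Dll1, a Notch ligand of new neurons, read 8.68, 8.62 and 8.49 against 8.57, 8.55 and 8.44 in midbrain at 48 h and fell by 1.11 in both midbrain 13 d and cortex labelled 48 h (difference 0.81, adjusted p = 0.00144). Atf4, the transcription factor of the integrated stress response, rose by 0.47 and 0.48 in those groups and had a difference of -0.26 ± 0.08 here (difference between responses -0.60, adjusted p = 0.0012). Hmox1, heme oxygenase, rose by 1.11 and 1.22 there and read 10.12, 10.77 and 11.15 against 10.58, 10.71 and 10.77 here, but its difference from the mean of the others missed the threshold (adjusted p = 0.0607).

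**Figure D5:**
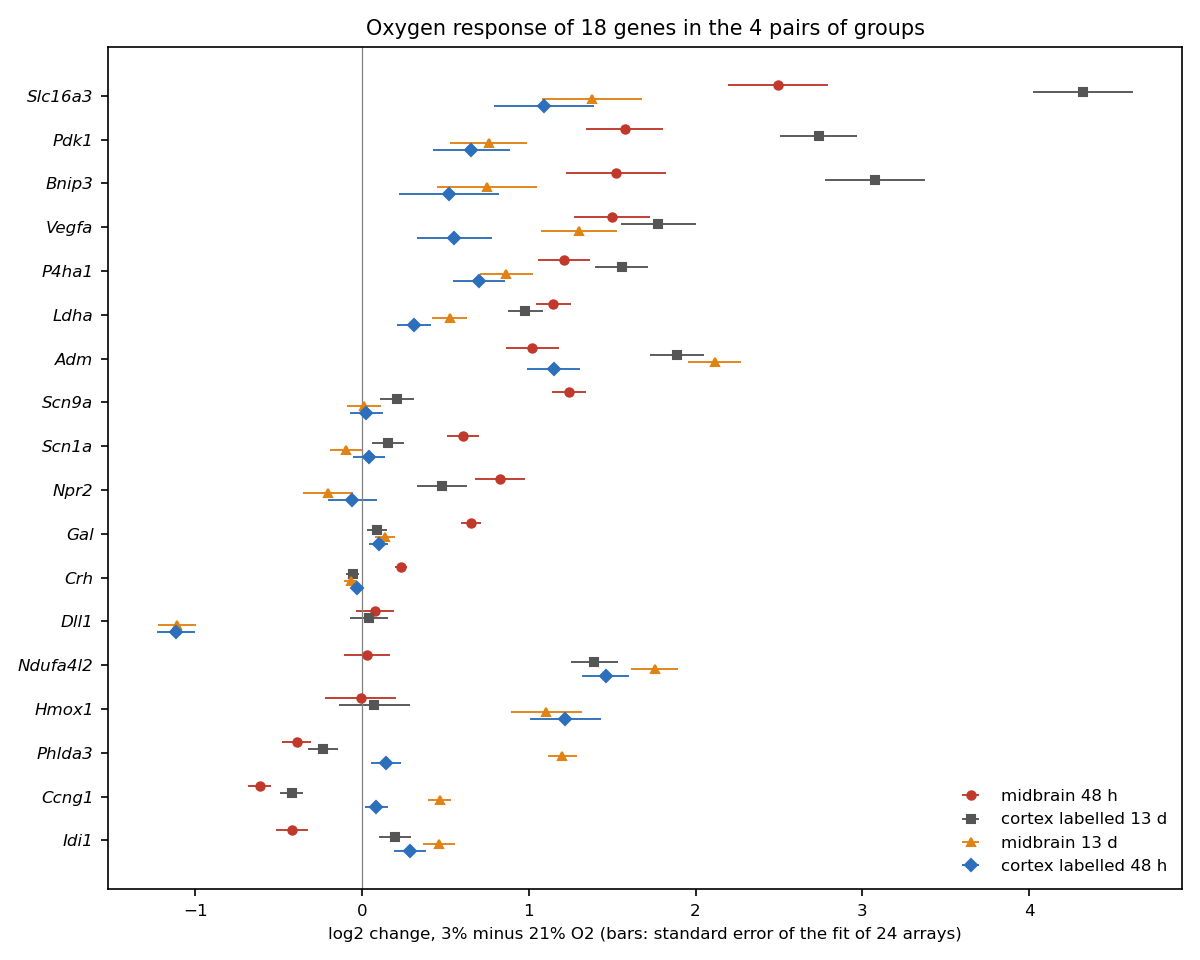
Log2 change, 3% minus 21% O2 (horizontal axis), of 18 genes in midbrain 48 h (red), cortex labelled 13 d (grey), midbrain 13 d (orange) and cortex labelled 48 h (blue), with bars for the standard error of the fit of 24 arrays. Slc16a3 changed by 2.50 and 4.32 in the first pair, Scn9a by 1.24 in midbrain 48 h and by 0.21 or less elsewhere, and Ndufa4l2 by 0.03 in midbrain 48 h and by 1.39 to 1.75 elsewhere.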

How the data were processed

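RNA was measured on whole-transcript arrays (MoGene 1.0 ST) from biotin-labelled cDNA. The authors deposited 1 normalized log2 value per probe set and array. How they were normalized is not stated in the labels or the file. Of the deposited probe sets, 23410 carried a gene symbol from the platform annotation (21789 with 1 symbol, 1621 with several, which are not named), and 5446 carried none. Of the single-symbol probe sets, 21698 were found by gene identifier in the RefSeq gene table of GRCm38.p6.

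The mean of each of the 8 groups was fitted on all 24 arrays with limma 3.58.1 in R 4.3.3 (lmFit and eBayes, 16 residual degrees of freedom), two-sided, with Benjamini-Hochberg adjustment over the 23410 probe sets and a threshold of 0.05. Errors of a difference are standard errors of that fit, and adjusted p-values in the text are from limma. An exact permutation test of 3 against 3 arrays cannot go below p = 0.1. All 6 compared arrays were of array run 2, as the labels have it. The number of arrays limits the precision, and normalized values do not show how far a signal stands above background.

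Lists of genes were described by counts and medians, using for each gene the probe set with the highest mean. The members and lists were chosen with earlier results of these data known. Genes were named as the 14 largest rises and 14 largest falls among called probe sets with 1 symbol and no overlap of the arrays (predicted genes passed over), the 2 members of each of 42 lists with the smallest p, 41 measured genes of a panel, and 6 genes each way of the difference between responses. Other genes are said to be named after their values were seen, or are members of a list.

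Same-numbered arrays of the 2 groups deviated together, with correlations of 0.12, 0.22 and 0.24 against -0.18 to -0.03 for other pairs. Deviations from a group mean cancel out, so positive values for same numbers bring negative ones for others. No label explains the numbers, and arrays were taken as pairs on this evidence alone. The main fit did not use the pairs, which entered the replicate block, the differences by number and the omissions of both arrays of a number. The scripts were tested on simulated data. Alternatives in normalization, filter, arrays used, array weights, replicate block and arrays left out were run.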

Additional observations from a re-analysis of the deposited data

Results flagged for a closer look

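The oxygen response of midbrain at 48 h differed from the mean of the other 3 oxygen responses in 1329 probe sets by limma's test of that difference, and 44 named genes were among them. The values that follow are differences between responses on the log2 scale, positive where the response was higher here. Among genes that rose here, the difference was 1.16 for Scn9a, 0.57 for Scn1a, 0.54 for Gal, 0.28 for Crh, 0.54 for Ldha, 0.30 for Abcc9 and -0.69 for Adm.

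For genes that fell here, the difference was -0.66 for Ccng1, -0.76 for Phlda3, -0.73 for Idi1, -0.88 for Cd180, -0.75 for Wfdc17, -0.40 for Rab2a, -0.52 for Eif5a, -0.51 for Selenop, -0.42 for Uprt, -0.42 for Zfand2a, -0.43 for Lzic, -0.38 for Abcc3, -0.41 for Tmem200b and -0.24 for Tfap2b.

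Genes that were not called here also differed. The difference was positive for Naaa (1.21), Mc5r (1.13), Slc24a3 (1.12), Sncaip (1.10), Abca1 (1.10), Hbb-y (1.03), Dll1 (0.81), Tgfbr1 (0.34) and Hif1a (0.25). It was negative for Col12a1 (-1.51), Ndufa4l2 (-1.51), Phospho1 (-1.46), Ier3 (-1.40), Cd93 (-1.37), Lrrc32 (-1.36), Ero1a (-0.71), Atf4 (-0.60), Plod2 (-0.54), Cebpb (-0.51), Fdps (-0.51), C1qa (-0.46), Osgin1 (-0.40) and Bnip3l (-0.29).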

How the results depend on the processing

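Of the 41 named genes called in the oxygen response, 0 changed sign under any alternative that tested them. The sign could change only where the values, the array weights or the compared arrays were altered. With 6 arrays alone 40 of the 41 lost the call, with the 18 arrays of run 2 alone 12 did, and with the 12 midbrain arrays alone 7 did. Brighter probe sets alone held 32 of the 41. They left out Scn9a, Scn1a, Gal, Crh, Abcc9, Tfap2b, Abcc3, Cd180 and Wfdc17, so these calls were not tested there. A gene left out was not always dim here, as Tfap2b had a mean of 11.84 at 21% O2. The count of 279 calls was 338 over all probe sets, 260 with median centring (68.1% higher), 317 with centring on probe sets with a symbol, an alternative chosen after seeing the data (49.5% higher), 224 with trend and robust moderation, 213 with the 12 midbrain arrays alone (71.4% higher) and 300 with array weights. It moved by over 1.5 times to 156 with brighter probe sets, 422 with quantile normalization, 125 with the 18 arrays of run 2 (68.8% higher) and 4 with 6 arrays alone. The cause was not tested. Quantile normalization used the same probe sets and arrays as the main fit, and the other settings of this kind used fewer. With the replicate number as a block, 390 were called, 269 of the 279 among them, and all 41 named calls were kept, while 9 named genes that were not called passed. With 6 arrays alone the block gave 0 calls. Leaving out 1 of the 6 arrays gave 141 to 302 calls, with 149, 141 and 247 without 3% replicates 1, 2 and 3 and 302, 227 and 179 without 21% replicates 1, 2 and 3. Leaving out both arrays of number 1, 2 or 3 gave 165, 132 and 147. The 1329 calls of the difference between responses became 2220 with array weights, 541 and 672 without both arrays of number 2 and 3, and 674 to 2143 with 1 array left out (674 without midbrain 48 h 3% replicate 2, 2143 without cortex labelled 48 h 21% replicate 1). With the block they were 1496. Changes near 0.5 can be missed with 3 arrays a group, and low signals cannot be told from background.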

Other observations

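Other called genes, named after their values were seen, lay outside the lists. Narf, which encodes a nuclear prelamin-binding protein, read 10.01, 9.97 and 9.92 at 3% O2 and 9.25, 9.15 and 8.91 at 21% O2 and rose by 0.86 (limma adjusted p = 3.39e-05). Tert, the catalytic subunit of telomerase, rose by 0.62 (adjusted p = 0.000627). Taf1d, a factor of ribosomal RNA transcription, was positive in all 9 of its probe sets, of which 2 were called, at 0.61 and 0.34. Among the falls were Park7 (-0.37), a redox-sensitive chaperone, Fis1 (-0.38), a mitochondrial fission factor, and Romo1 (-0.30), a mitochondrial membrane protein.

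Small nucleolar RNA genes, which guide the modification of ribosomal RNA, were mostly higher. Of 58 probe sets, 55 were positive, the median was 0.22 and 3 rose (5.17%), namely Snord104 (0.62), Snora73a (0.55) and Snord35b (0.51). Over 20334 protein-coding probe sets, 139 rose (0.684%) and 8252 were positive. Many of these RNAs lie in introns of host genes, and the array does not tell host transcript from mature RNA.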
